A study of Mus musculus with 24 samples.

Results

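The single library of mouse Lys-GFP-ER-HoxA9 cells collected at 12 h of R07 treatment was set against 4 libraries of the same cells, 2 at 12 h and 2 at 0 h of estradiol withdrawal. It is 1 of 24 libraries in the series. R07 is named in the labels by this code alone. The comparison asks which transcripts lay outside the range of both withdrawal times after 12 h of R07, that is, above all 4 or below all 4 of those libraries. Since R07 had 1 library at this time, no spread could be measured within it. The spread came from the duplicates of the withdrawal course, and the test treats the R07 library as varying by as much as they did. Anything else particular to that single culture or library cannot be told apart from the effect of R07.

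The cells carry C57Bl/6 as their strain label and were grown in medium with Stem Cell Factor and 0.5 micromolar beta-estradiol, as were all groups. The name of the line denotes an estrogen receptor fused to HoxA9 and a GFP reporter. Groups used below were R07 at 12 h (1 library), R07 at 36, 72 and 120 h (1 library each), withdrawal at 12 h (2 libraries) and withdrawal at 0 h (2 libraries), with withdrawal at 4, 8, 24, 36, 48, 72, 96 and 120 h (2 each) adding to the estimate of the spread. The labels repeat the withdrawal wording for R07, so whether estradiol was present with R07 is not given in the sources used here. They do not say whether duplicates were separate cultures, and p-values then measure the spread between libraries, which may be technical.

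HoxA9 is a homeodomain transcription factor that keeps myeloid progenitors immature and self-renewing. Fused to the hormone-binding domain of the estrogen receptor, it is active while estradiol is present, and withdrawal lets the cells proceed to myeloid differentiation. Under amino acid shortage or other stress, cells translate ATF4, a transcription factor that raises amino acid transporters, aminoacyl-tRNA synthetases and its own feedback regulators.

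The libraries held 36623072 to 49599069 counts in genes across the series, with 49338595 in R07 12 h, 43690099 and 40095355 at withdrawal 12 h, and 36999060 and 46223079 at 0 h. Progenitor transcripts matched the label of the line. Kit, the Stem Cell Factor receptor, stood at 605 CPM (counts scaled to library size, with TMM factors) in R07, against 545 and 479 CPM at withdrawal 12 h and 784 and 715 CPM at 0 h. Mpo, the myeloperoxidase of primary granules, had 3259 CPM in R07, against 5423 and 6281 CPM at withdrawal 12 h and 3916 and 3675 CPM at 0 h. The neutrophil secondary granule gene Ltf did not exceed 1.62 CPM in any of the 5 libraries. The typical gene differed by 0.244 to 0.268 on the log2 scale between R07 12 h and each of the other 4 libraries, against 0.128 between the 0 h duplicates and 0.133 between the 12 h duplicates (median absolute difference, 9581 genes).

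Of 13715 genes tested, 1333 (9.72%) were higher in R07 12 h than in all 4 withdrawal libraries and 929 (6.77%) were lower, each with an adjusted p under 0.05 against both times (edgeR quasi-likelihood test, Benjamini-Hochberg). These 2 percentages are the background for every count of called list members below, and such genes are the ones called risen or fallen. By the rule of the call, R07 was the highest or lowest of the 5 libraries for each of them. Both directions together made 16.5%. By level alone, with no test, 59.8% of genes lay outside the range of the 4 libraries, 32.1% above all 4 and 27.7% below. The gap to the nearest of the 4 libraries, with 0.1 CPM added to each level, was at least 1.5-fold for 699 higher (5.1%) and 292 lower genes (2.13%), and at least 2-fold for 244 higher (1.78%) and 76 lower genes (0.554%). Against withdrawal 12 h alone, 29.1% of genes passed, with 2136 higher in R07 (15.6%) and 1852 lower (13.5%). Against 0 h alone, 27.9% passed, with 2309 higher (16.8%) and 1516 lower (11.1%). The last of these counts was 953 without 0 h library A. Between withdrawal 12 h and 0 h, in the same fit, 17.9% of genes passed, with 1479 higher at 12 h (10.8%) and 982 lower (7.16%). Of the genes called beyond all 4, 43 had under 10 counts in each withdrawal library and 37 had under 10 in R07, so that their calls rest on few reads.

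In the list of ATF4 targets and amino acid metabolism genes, 8 of 27 tested members fell beyond all 4 libraries, none rose and 19 were not called. The median log2 difference of the list was -0.34 against withdrawal 12 h and -0.84 against 0 h, where the median over all genes was 0.0062 and 0.043. Atf4 itself, on chromosome 15 (mm10, chr15:80255184-80257541, plus strand), had 88.8 CPM in R07, against 198 and 221 CPM at withdrawal 12 h and 333 and 343 CPM at 0 h. The R07 library was the lowest of the 5, and the withdrawal 12 h libraries lay between it and 0 h. The log2 difference was -1.24 ± 0.13 (SE) from 12 h (adjusted p = 5.75e-07) and -1.93 ± 0.13 from 0 h (adjusted p = 1.31e-08). Atf5, a related stress-response transcription factor, had 16.1 CPM in R07, against 46.8 and 55.6 CPM at withdrawal 12 h and 96.3 and 93.3 CPM at 0 h. Trib3, a pseudokinase that restrains ATF4 activity, had 4.18 CPM, against 9.88 and 11.2 CPM at withdrawal 12 h and 37.2 and 33.8 CPM at 0 h. For both genes R07 stood lowest, as the call requires, and both libraries at withdrawal 12 h lay below those at 0 h.

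Chac1, which degrades glutathione, had 7 counts in R07, or 0.130 CPM, against 1.17 and 1.33 CPM at withdrawal 12 h and 2.21 and 2.24 CPM at 0 h. Its log2 difference was -3.24 ± 0.45 from 12 h and -4.07 ± 0.42 from 0 h, with the R07 value resting on those few reads. The amino acid transporters Slc7a5 and Slc7a1 fell as well. Slc7a5, the large neutral amino acid carrier, had 173 CPM in R07, against 308 and 325 CPM at withdrawal 12 h and 359 and 312 CPM at 0 h. Slc7a1, which carries cationic amino acids, had 163 CPM, against 297 and 279 CPM at withdrawal 12 h and 352 and 309 CPM at 0 h. Aars, the alanyl-tRNA synthetase, and Ddit3, which encodes the stress factor CHOP, made up the 8 members, and both lost the call against 12 h without withdrawal 12 h library B (adjusted p = 0.051 and 0.07). The other 19 members were not called. Psat1, an enzyme of serine synthesis, had 865 CPM in R07, against 654 and 687 CPM at withdrawal 12 h and 1128 and 1157 CPM at 0 h, and Slc7a11, the cystine carrier, had 56.3 CPM, against 45.2 and 34.9 CPM at withdrawal 12 h and 128 and 131 CPM at 0 h. Asns, asparagine synthetase, had 51 CPM, against 60.6 and 58.9 CPM at withdrawal 12 h and 90.6 and 94.8 CPM at 0 h. For Psat1 and Slc7a11 R07 lay between the withdrawal times, and Asns lay below all 4 libraries but missed the threshold against 12 h (adjusted p = 0.132).

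ATF4 binds, as a dimer with C/EBP proteins, a composite element whose letters were searched as TGATGNAA on both strands in the 250 bases before the gene start (RefSeq, GRCm38.p6). Counting a gene with a match in any of its promoters, it was present in 3.91% of 27025 genes. Among list members with a promoter sequence it was present in 7 of 25 (28.0%). The list was chosen as one of ATF4 targets, so this difference is no test. Among the members that fell it was present in 2 of 7 with a sequence. Those 2 and Asns, which was not called, are shown with the match in capitals. Sequences run 5′ to 3′ along the gene: Chac1 is chr2:119350992-119351241 (plus strand), Aars is chr8:111033592-111033841 (plus strand) and Asns is chr6:7693210-7693459 (minus strand).
Chac1: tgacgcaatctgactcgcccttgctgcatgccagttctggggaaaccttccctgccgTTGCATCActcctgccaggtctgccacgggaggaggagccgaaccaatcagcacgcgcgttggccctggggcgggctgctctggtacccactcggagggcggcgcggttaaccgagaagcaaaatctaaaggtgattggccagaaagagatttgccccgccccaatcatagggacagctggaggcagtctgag
Aars: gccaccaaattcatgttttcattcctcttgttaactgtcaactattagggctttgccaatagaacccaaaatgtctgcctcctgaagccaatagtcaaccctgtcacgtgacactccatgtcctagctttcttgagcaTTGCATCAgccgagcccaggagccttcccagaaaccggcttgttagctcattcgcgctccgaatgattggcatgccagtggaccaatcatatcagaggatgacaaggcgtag
Asns: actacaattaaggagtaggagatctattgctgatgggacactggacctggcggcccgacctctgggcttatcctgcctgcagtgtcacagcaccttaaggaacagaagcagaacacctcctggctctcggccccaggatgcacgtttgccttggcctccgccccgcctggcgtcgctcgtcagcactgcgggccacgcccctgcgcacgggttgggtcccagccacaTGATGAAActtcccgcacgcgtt
The match lies on the strand opposite to the gene in Chac1 and Aars and on the gene's own strand in Asns, and these matches are letters in a window, with binding not measured.

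**Figure D1:**
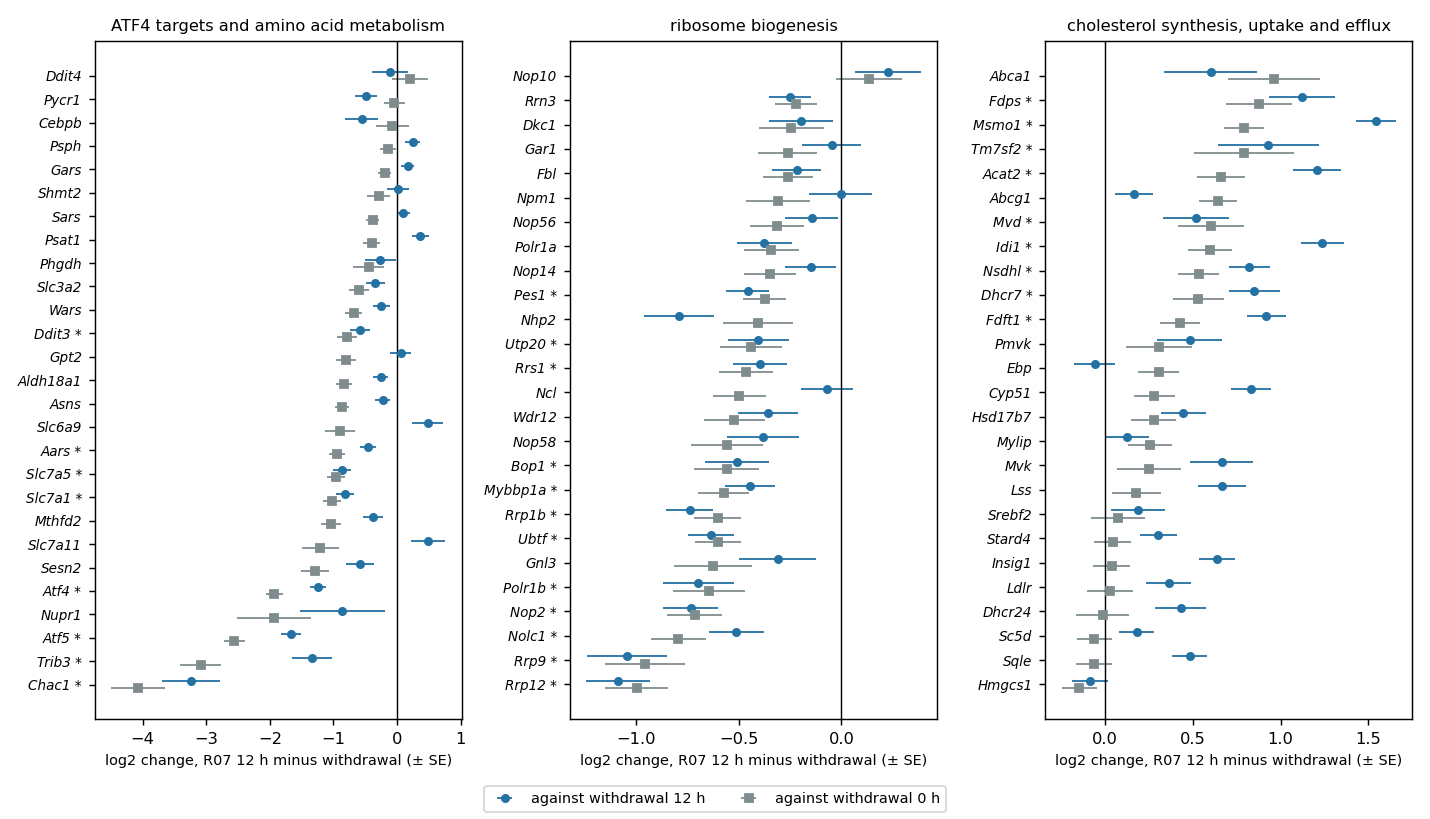
Log2 difference of R07 12 h from withdrawal 12 h (circles) and from withdrawal 0 h (squares), with SE, for tested members of 3 gene lists. Asterisks mark the 8, 12 and 9 members called beyond all 4 libraries. The ATF4 list runs down to -4.07 for Chac1 against 0 h.

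The largest share of fallen genes in any list with at least 10 tested members was in ribosome biogenesis, where 12 of 26 fell (46.2%, against 6.77% of all genes), none rose, and 25 of 26 lay below all 4 libraries by level (27.7% of all genes). The list median was -0.39 against withdrawal 12 h and -0.48 against 0 h on the log2 scale. Rrp12, a factor in pre-ribosome export, had 73.6 CPM in R07, against 152 and 159.8 CPM at withdrawal 12 h and 159 and 134 CPM at 0 h. Rrp9, a component of the U3 small nucleolar ribonucleoprotein, had 30.7 CPM, against 57 and 69.7 CPM at withdrawal 12 h and 61.6 and 57.7 CPM at 0 h. In both genes the R07 library was the lowest and the 4 withdrawal libraries lay close to each other. Nop2, a methyltransferase of 28S ribosomal RNA, had 108 CPM, against 174 and 183 CPM at withdrawal 12 h and 188 and 165 CPM at 0 h. Polr1b, the second largest subunit of RNA polymerase I, had 88.9 CPM, against 147 and 141 CPM at withdrawal 12 h and 146 and 133 CPM at 0 h. Ubtf, the polymerase I upstream binding factor, had 156 CPM, against 242 and 245 CPM at withdrawal 12 h and 249 and 226 CPM at 0 h. The log2 difference from 12 h was -1.09 ± 0.15 for Rrp12 (adjusted p = 3.05e-05) and -0.64 ± 0.11 for Ubtf (adjusted p = 2.64e-04). The abundant nucleolar proteins did not pass: Ncl, nucleolin, had 1759.7 CPM in R07, against 1862 and 1834 CPM at withdrawal 12 h and 2363 and 2600.1 CPM at 0 h, and Npm1, nucleophosmin, had 2253 CPM, against 2253 and 2263 CPM at withdrawal 12 h and 2535 and 3054 CPM at 0 h.

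Myc, a transcription factor that drives ribosome biogenesis and growth, fell to 344 CPM in R07, against 504 and 504 CPM at withdrawal 12 h and 480.1 and 478 CPM at 0 h. The log2 difference was -0.55 ± 0.13 from 12 h (adjusted p = 0.00377) and -0.48 ± 0.13 from 0 h (adjusted p = 0.0112). In the MYC, MXD and MAX network 2 of 11 members rose and 2 fell. Of purine synthesis genes 3 of 15 fell, among them Gart, a trifunctional enzyme of the pathway, with 262 CPM, against 401 and 415 CPM at withdrawal 12 h and 419.8 and 391 CPM at 0 h, while 1 rose. Of pyrimidine genes 2 of 29 rose and 2 fell (6.9% each, against 9.72% and 6.77% of all genes). The uridine-cytidine kinase Uck2 had 230.0 CPM in R07, against 358 and 359.5 CPM at withdrawal 12 h and 377 and 347 CPM at 0 h, and the nucleoside transporter Slc29a2 had 9.29 CPM, against 17.9 and 18.3 CPM at withdrawal 12 h and 18.5 and 16.4 CPM at 0 h, both below all 4. Dhodh, the enzyme of the dihydroorotate step in that pathway, was not called, with 24.6 CPM, against 28.1 and 31.3 CPM at withdrawal 12 h and 32.9 and 32.3 CPM at 0 h. Snhg5, a host gene of small nucleolar RNAs, had the widest gap of the lower genes with a mean of at least 4 CPM. It had 7.52 CPM in R07, against 24.9 and 25.9 CPM at withdrawal 12 h and 28.7 and 31.8 CPM at 0 h.

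**Figure D2:**
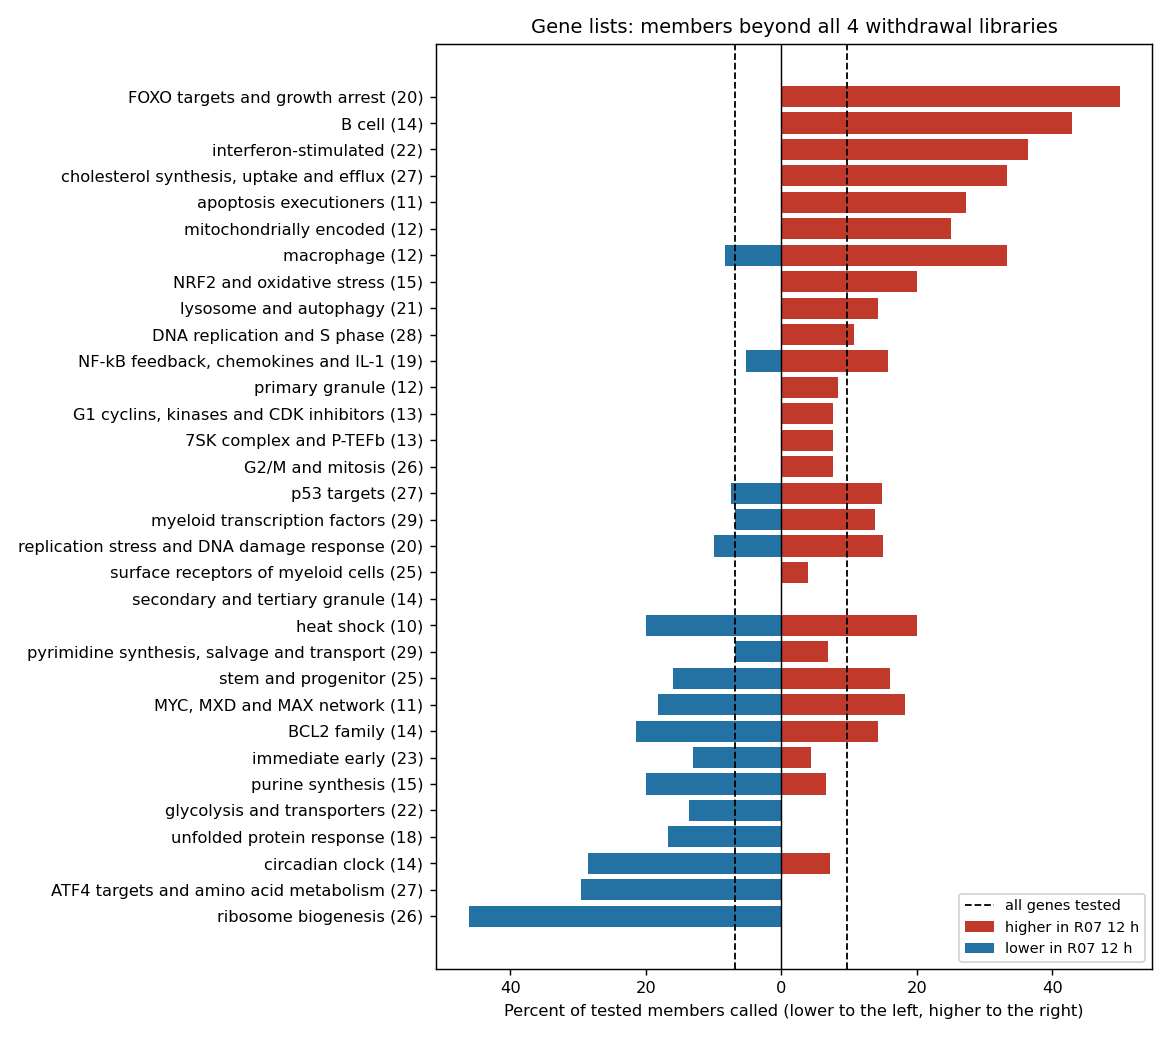
Percent of tested members that rose (right) or fell (left) beyond all 4 withdrawal libraries, for gene lists with at least 10 tested members. The number tested is in brackets. The 7SK, FOXO and circadian lists were added after the values were seen. Dashed lines mark all genes tested, 9.72% higher and 6.77% lower. Ribosome biogenesis has 46.2% lower and interferon-stimulated genes have 36.4% higher.

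Among genes that rose and had a mean of at least 4 CPM, Ids had the widest gap. Ids, a lysosomal sulfatase, had 14.5 CPM in R07, against 3.84 and 3 CPM at withdrawal 12 h and 3.06 and 3.09 CPM at 0 h. Prnp, the prion protein, had 29.2 CPM, against 8.80 and 7.44 CPM at withdrawal 12 h and 8.20 and 8.45 CPM at 0 h, and St6gal1, a sialyltransferase, had 55.1 CPM, against 15.7 and 16.5 CPM at withdrawal 12 h and 17.1 and 15.9 CPM at 0 h. In all 3 genes the 4 withdrawal libraries clustered and R07 stood more than 3-fold above the nearest. Hexim1, the inhibitor that holds the elongation kinase P-TEFb in the 7SK complex, also had a wide gap. It lies at chr11:103116231-103119725 (mm10, plus strand) and had 129 CPM in R07, against 39.6 and 38.4 CPM at withdrawal 12 h and 41.8 and 41.6 CPM at 0 h. The log2 difference was 1.72 ± 0.12 from 12 h (adjusted p = 6.84e-09) and 1.63 ± 0.12 from 0 h (adjusted p = 5.66e-08). A list of 13 genes of the 7SK complex and P-TEFb was added after these values were seen, and Hexim1 was its single called member. Cdk9, the kinase, had 114 CPM in R07, against 107 and 114 CPM at withdrawal 12 h and 112 and 105 CPM at 0 h, and Hexim2, the paralog, had 2.54 CPM, against 2.90 and 3.23 CPM at withdrawal 12 h and 3.38 and 2.97 CPM at 0 h.

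**Figure D3:**
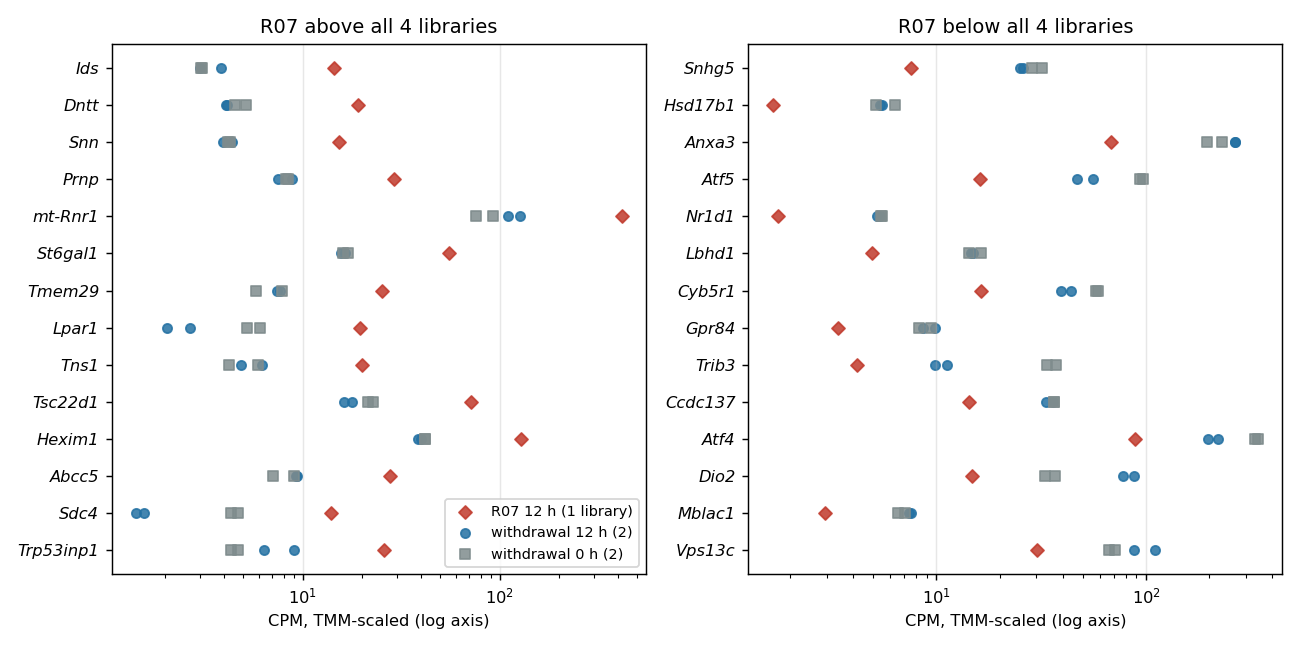
Level of each gene in each library (CPM, log axis) for the 14 genes with the widest gap above (left) and below (right) all 4 withdrawal libraries. Diamonds are R07 12 h, circles withdrawal 12 h and squares 0 h. The R07 diamond for Hexim1 lies at 129 CPM and that for Atf4 at 88.8 CPM.

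The 14 genes with the widest gap above the 4 libraries, Ids among them, lay between 2.86-fold and 3.70-fold above the nearest library, and the 14 with the widest gap below, Snhg5 among them, between 2.19-fold and 3.28-fold below it. Lpar1, a lysophosphatidic acid receptor, had 19.5 CPM in R07, against 2.67 and 2.05 CPM at withdrawal 12 h and 6.09 and 5.21 CPM at 0 h. Sdc4, a heparan sulfate proteoglycan, had 13.9 CPM, against 1.56 and 1.43 CPM at withdrawal 12 h and 4.67 and 4.30 CPM at 0 h. For these genes, as for Flt3 below, withdrawal 12 h was the lowest group and R07 the highest. Snn, Tmem29, Tns1, a focal adhesion protein, and Abcc5, an export pump, had 15.3, 25.2, 19.9 and 27.6 CPM in R07, against at most 4.38, 7.85, 6.24 and 9.32 CPM in the withdrawal libraries. Among the lower genes, Dio2, which activates thyroid hormone, had 14.8 CPM in R07, against 87.4 and 77.6 CPM at withdrawal 12 h and 33.1 and 37 CPM at 0 h, and Vps13c, a lipid transfer protein, had 30.2 CPM, against 111 and 87.5 CPM at withdrawal 12 h and 71.4 and 66.4 CPM at 0 h. Both were highest at withdrawal 12 h and lowest in R07. Cyb5r1, a reductase, had 16.3 CPM, against 39.4 and 44 CPM at withdrawal 12 h and 57.6 and 58.9 CPM at 0 h. Hsd17b1, an enzyme of estradiol synthesis, Gpr84, a receptor for fatty acids on myeloid cells, Lbhd1, Ccdc137 and Mblac1 had 1.65, 3.40, 4.90, 14.3 and 2.93 CPM in R07, against at least 5.15, 8.21, 14.2, 33.3 and 6.56 CPM in the withdrawal libraries.

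FOXO transcription factors sense nutrient and growth-factor supply and drive growth arrest. Of 20 tested members of a list of their targets and growth-arrest genes, also added after the values were seen, 10 rose (50%, against 9.72% of all genes) and none fell. The list was made with these values known and holds Tsc22d1, among the 14 widest gaps above, so its share is no test. Tsc22d1, a transcriptional regulator that restrains proliferation, had 71.5 CPM in R07, against 17.9 and 16.2 CPM at withdrawal 12 h and 22.7 and 21.5 CPM at 0 h. Trp53inp1, a stress protein that promotes autophagy, had 25.9 CPM, against 8.99 and 6.35 CPM at withdrawal 12 h and 4.33 and 4.70 CPM at 0 h. Ccng2, an unconventional cyclin linked to arrest, had 61.7 CPM, against 24.9 and 17.7 CPM at withdrawal 12 h and 21.3 and 23.1 CPM at 0 h. As the call requires, R07 lay above all 4 withdrawal libraries for these 3 genes. Tob1, an antiproliferative protein that acts on mRNA decay, had 20.2 CPM, against 5.14 and 4.71 CPM at withdrawal 12 h and 7.06 and 8.27 CPM at 0 h. In the BCL2 family Bcl2l11, which encodes the death-promoting protein BIM, rose to 34.8 CPM, against 20.4 and 18 CPM at withdrawal 12 h and 19.7 and 19.8 CPM at 0 h. Bmf, another death-promoting member, rose to 4.37 CPM, against 1.5 and 1.66 CPM at withdrawal 12 h and 0.646 and 0.585 CPM at 0 h, and Bbc3, the p53 target encoding PUMA, fell to 1.80 CPM, against 4.18 and 4.30 CPM at withdrawal 12 h and 4.95 and 4.20 CPM at 0 h. The family as a whole had 2 of 14 higher and 3 lower. Of 27 p53 targets 4 rose and 2 fell, and Cdkn1a, the cell-cycle inhibitor p21, had 26.6 CPM in R07, against 25.6 and 29.3 CPM at withdrawal 12 h and 26.4 and 24.8 CPM at 0 h, inside the range of the other libraries.

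Cell-cycle lists stayed near the background. In DNA replication and S phase 3 of 28 members rose (10.7%, against 9.72% of all genes), including the cyclin E gene Ccne2 at 144 CPM, against 86.1 and 73.2 CPM at withdrawal 12 h and 65.4 and 85.1 CPM at 0 h, and in G2/M and mitosis 2 of 26 rose, with none lower in either. Mki67, a proliferation marker, had 511 CPM in R07, against 486 and 411 CPM at withdrawal 12 h and 564 and 556 CPM at 0 h. Cdkn2c, the inhibitor p18 of the G1 kinases, rose to 46.2 CPM, against 27.7 and 24.7 CPM at withdrawal 12 h and 27.3 and 25.4 CPM at 0 h.

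The HOXA9 system and progenitor genes moved in both directions, with 4 of 25 members of the stem and progenitor list higher and 4 lower. Flt3, a receptor tyrosine kinase of early progenitors, had 555 CPM in R07, against 54.2 and 53.2 CPM at withdrawal 12 h and 332 and 289 CPM at 0 h. R07 thus exceeded both times, by a larger factor against 12 h, when the withdrawn cells differed from 0 h by -2.53 on the log2 scale. Its log2 difference was 3.37 ± 0.19 from 12 h (adjusted p = 1.85e-10) and 0.84 ± 0.19 from 0 h (adjusted p = 0.00292). Cd34, a surface sialomucin of progenitors, had 3663 CPM, against 2157 and 2156 CPM at withdrawal 12 h and 2673 and 2776 CPM at 0 h. Mef2c, a transcription factor of lymphoid-primed progenitors, had 37.4 CPM, against 20.5 and 16.5 CPM at withdrawal 12 h and 15.7 and 16.6 CPM at 0 h. Hoxa9 fell to 78.9 CPM, against 171 and 165 CPM at withdrawal 12 h and 148 and 129 CPM at 0 h, and Esr1, estrogen receptor alpha, fell to 28 CPM, against 56.2 and 51.1 CPM at withdrawal 12 h and 45.5 and 42.1 CPM at 0 h. Reads of the introduced fusion cannot be told apart here from those of the endogenous Hoxa9 and Esr1 genes. Lyl1, a helix-loop-helix factor of stem cells, fell to 50.5 CPM, against 89 and 106 CPM at withdrawal 12 h and 97.4 and 87 CPM at 0 h. Meis1, a HOXA9 cofactor, had 33.1 CPM in R07, against 16.8 and 15.1 CPM at withdrawal 12 h and 27.4 and 26.4 CPM at 0 h, and passed against 12 h only. Cebpe, a transcription factor of late granulocyte maturation, had 6.41 CPM, against 36.6 and 50.9 CPM at withdrawal 12 h and 8.28 and 9.38 CPM at 0 h, so that R07 lay with 0 h and far below 12 h.

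Of 14 B cell list members 6 rose (42.9%) and none fell. Dntt, terminal transferase, which adds bases at antigen-receptor joints, had 19 CPM in R07, against 4.10 and 4.14 CPM at withdrawal 12 h and 4.53 and 5.17 CPM at 0 h. Rag2, a subunit of the V(D)J recombinase, had 205 CPM, against 11 and 10.9 CPM at withdrawal 12 h and 119.9 and 125 CPM at 0 h. Vpreb1, a surrogate light chain, had 3.96 CPM, against 1.65 and 1.64 CPM at withdrawal 12 h and 1.64 and 1.47 CPM at 0 h, and Blnk, an adaptor of B cell receptor signalling, had 2.97 CPM, against 1.17 and 1.38 CPM at withdrawal 12 h and 0.448 and 0.585 CPM at 0 h. R07 was the highest library for each of these genes, as the call requires. Cd79a, a B cell receptor chain, was not called, with 4.55 CPM in R07, against 4.64 and 6.73 CPM at withdrawal 12 h and 3.06 and 2.78 CPM at 0 h. The summed level of the 14 B cell genes was 814 CPM in R07, against 272 to 322 CPM at withdrawal 12 h and 572 to 590 CPM at 0 h. In bulk RNA a change in the number of such cells and in RNA per cell cannot be told apart. Il7r, the interleukin-7 receptor chain, had 2.32 CPM in R07, against 0.585 and 0.333 CPM at withdrawal 12 h and 0.224 and 0.585 CPM at 0 h.

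The myeloid maturation lists differed in their counts. None of 14 secondary and tertiary granule genes passed. In the primary granule list 1 of 12 tested members rose and 11 were not called. The risen member was Gsn, which was placed in that list but encodes an actin-severing protein. It lost the call against 12 h without withdrawal 12 h library A, where the log2 difference was 0.44. By level alone, 8 of the 14 secondary and tertiary granule genes lay above all 4 libraries (32.1% of all genes) and 1 below (27.7%). Their median log2 difference was 0.72 from withdrawal 12 h and 0.63 from 0 h. Their summed level was 194 CPM in R07, against 179 to 180 CPM at withdrawal 12 h and 116 to 128 CPM at 0 h. The summed primary granule level was 7940 CPM in R07, against 10700 to 12300 CPM at withdrawal 12 h and 8460 to 8760 CPM at 0 h. Of macrophage genes 4 of 12 rose (33.3%, against 9.72% of all genes) and 1, Apoe, fell. The widest gap was that of Lgmn, the lysosomal protease legumain, with 41.8 CPM, against 6.65 and 6.85 CPM at withdrawal 12 h and 25.2 and 20.5 CPM at 0 h. Several of these calls were not firm. Mrc1 lost its call against 0 h under several alternatives, DESeq2 among them. Ctsl lost a call without each withdrawal library in turn, and Apoe lost the call against 12 h without either withdrawal 12 h library. The summed level of the macrophage genes was 270 CPM in R07, against 191 to 200 CPM at withdrawal 12 h and 157 to 166 CPM at 0 h. C1qa, Cd36 and Marco had no reads in the 5 libraries. The part of these marker levels in the results above was not tested. Surface receptors of myeloid cells gave 1 of 25 higher (4%) and none lower. Their median log2 difference was -0.73 from withdrawal 12 h and 0.68 from 0 h. Myeloid transcription factors stayed near the background, with 4 of 29 higher (13.8%, against 9.72% of all genes), 2 lower (6.9%, against 6.77%) and 23 not called. The called members of that list include Klf4 and Id1. Klf4, a transcription factor of monocytes, rose to 3.70 CPM, against 0.217 and 0.214 CPM at withdrawal 12 h and 0.970 and 0.726 CPM at 0 h, and Id1, an inhibitor of helix-loop-helix factors, fell to 4.92 CPM, against 21.5 and 22.9 CPM at withdrawal 12 h and 6.96 and 8.01 CPM at 0 h, a call lost against 0 h without 0 h library B (adjusted p = 0.055). Anxa3, an annexin of neutrophils, fell to 67.7 CPM, against 267 and 267 CPM at withdrawal 12 h and 196 and 229.8 CPM at 0 h.

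Of 22 tested interferon-stimulated genes 8 rose (36.4%) and none fell, and 17 lay above all 4 libraries by level (32.1% of all genes). Their median log2 difference was 0.84 from withdrawal 12 h and 1.14 from 0 h. Cmpk2, a mitochondrial nucleotide kinase induced by interferon, had 12.2 CPM in R07, against 4.62 and 3.59 CPM at withdrawal 12 h and 4.05 and 4.60 CPM at 0 h. Xaf1, a death-promoting protein, had 2.12 CPM, against 0.477 and 0.690 CPM at withdrawal 12 h and 0.497 and 0.847 CPM at 0 h, and Oasl1, an antiviral protein, had 2.73 CPM, against 1.06 and 0.832 CPM at withdrawal 12 h and 1.02 and 1.15 CPM at 0 h. These levels were low in every library, and the R07 value was at least 2.26-fold above the nearest other library for each, with 0.1 CPM added. Irf7, a master regulator of the type I interferon response, had 2.01 CPM, against 0.737 and 0.856 CPM at withdrawal 12 h and 0.472 and 0.484 CPM at 0 h, and lost its call against 12 h without withdrawal 12 h library A (adjusted p = 0.086). With no filter on low counts, 13 of 25 members rose, while each fit without 1 withdrawal library had fewer risen members than reported.

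Of 27 cholesterol synthesis, uptake and efflux genes 9 rose (33.3%), none fell and 18 lay above all 4 libraries by level (32.1% of all genes). The median log2 difference was 0.52 against withdrawal 12 h and 0.28 against 0 h. Msmo1, a methylsterol oxidase, had 127 CPM in R07, against 43.9 and 43.3 CPM at withdrawal 12 h and 66.8 and 79.8 CPM at 0 h. Idi1, isopentenyl-diphosphate isomerase, had 50.7 CPM, against 22 and 21 CPM at withdrawal 12 h and 31.8 and 35.1 CPM at 0 h, and Acat2, acetyl-CoA acetyltransferase, had 72.4 CPM, against 29.5 and 33.2 CPM at withdrawal 12 h and 43.7 and 47.8 CPM at 0 h. For all 3 genes the order was R07, then 0 h, then withdrawal 12 h. Tm7sf2, Mvd, Dhcr7 and Fdft1, also among the 9, lost the call against 0 h without at least 1 of the 0 h libraries. In each fit without 1 of those libraries, fewer members of this list rose than reported. Of 7 tested aryl hydrocarbon receptor and xenobiotic genes 5 rose, or 3 of 7 without 0 h library B. Ahr, the receptor, had 7.24 CPM in R07, against 1.26 and 1.28 CPM at withdrawal 12 h and 2.29 and 2.82 CPM at 0 h. Abcb1b, a drug efflux pump with the close paralog Abcb1a, had 59.3 CPM, against 25.6 and 23.6 CPM at withdrawal 12 h and 30.6 and 29.1 CPM at 0 h. Nqo1, a quinone reductase shared with the NRF2 list, had 7.32 CPM, against 2.90 and 2.95 CPM at withdrawal 12 h and 1.39 and 1.23 CPM at 0 h, and in that list of oxidative stress genes 3 of 15 rose and none fell.

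In the unfolded protein response 3 of 18 members fell, of which Ern1, the IRE1 sensor, had 85.9 CPM in R07, against 152 and 145 CPM at withdrawal 12 h and 153 and 139 CPM at 0 h. In glycolysis 3 of 22 fell, with Pfkfb3, which makes an activator of phosphofructokinase, at 103 CPM, against 177 and 171 CPM at withdrawal 12 h and 166 and 159 CPM at 0 h, and none rose. Immediate early genes gave 1 of 23 higher and 3 lower, since Jun, a subunit of AP-1, rose to 3.64 CPM, against 1.17 and 1.24 CPM at withdrawal 12 h and 1.04 and 0.989 CPM at 0 h, while Fosl1, another AP-1 subunit, fell to 1.88 CPM, against 6.46 and 6.52 CPM at withdrawal 12 h and 3.95 and 3.55 CPM at 0 h. Of circadian clock genes, a list added after the values were seen, 4 of 14 fell and 1 rose. Since that list was made with these values known, its counts are no test. Nr1d1, the repressor REV-ERB alpha, had 1.75 CPM, against 5.20 and 5.38 CPM at withdrawal 12 h and 5.47 and 5.45 CPM at 0 h, and Per2, a clock repressor, had 8.38 CPM, against 18.2 and 16.8 CPM at withdrawal 12 h and 23 and 19.7 CPM at 0 h.

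The remaining lists are set against 9.72% of all genes higher and 6.77% lower. Heat shock genes gave 2 of 10 higher (20%) and 2 lower (20%). G1 cyclins, kinases and CDK inhibitors gave 1 of 13 higher (7.69%) and none lower. T cell genes and MHC class II genes each gave 1 of 4 higher (25%), a single gene, and none lower. Among host genes of small nucleolar RNAs 2 of 9 fell (22.2%) and none rose. That list was added after the values were seen, so its counts are no test. Of 6 mast cell and basophil genes none passed, and 1 of 5 eosinophil, 1 of 6 erythroid and 1 of 6 megakaryocyte genes rose, a single gene in each. Of 9 estrogen receptor targets none rose and 2 fell (22.2%), Esr1 and Xbp1, with a median log2 difference of -0.83 from withdrawal 12 h and -0.29 from 0 h. Xbp1, a factor of the unfolded protein response, lost the call against 0 h under several alternatives (adjusted p = 0.14 without 0 h library B). In the NF-kB feedback and chemokine list 3 of 19 rose (15.8%) and 1 fell, with the inhibitor Nfkbia at 19 CPM in R07, against 11.2 and 11.6 CPM at withdrawal 12 h and 10.3 and 10.9 CPM at 0 h, and Tnf, a cytokine, at 1.04 CPM, against 2.71 and 2.95 CPM at withdrawal 12 h and 3.21 and 3.01 CPM at 0 h. Of 11 apoptosis executioners 3 rose (27.3%), of 21 lysosome and autophagy genes 3 rose (14.3%), and none of either list fell; the executioner caspase Casp6 had 22.8 CPM, against 11.2 and 12.3 CPM at withdrawal 12 h and 11 and 14.4 CPM at 0 h. Replication stress and DNA damage response genes gave 3 of 20 higher (15%) and 2 lower (10%), of which H2afx, the histone variant that marks breaks, had 41.5 CPM, against 69.3 and 82.2 CPM at withdrawal 12 h and 74.6 and 77.5 CPM at 0 h.

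The mitochondrial share of gene counts was 2.04% in R07 12 h, against 1.08 and 1.46% at withdrawal 12 h and 0.822 and 0.889% at 0 h. It was the highest of the 24 libraries. Of 12 tested genes 3 rose (9.72% of all genes) and 10 lay above all 4 by level (32.1% of all genes). The 12S ribosomal RNA mt-Rnr1, which is not a usual product of oligo-dT selection, had 416 CPM in R07, against 127 and 110.4 CPM at withdrawal 12 h and 76.2 and 92 CPM at 0 h. mt-Co1, a subunit of cytochrome oxidase, had 8915 CPM, against 5715 and 4202 CPM at withdrawal 12 h and 3240.3 and 3367 CPM at 0 h. The multimapping share of reads, 8.72% in R07, was also the highest in the series. The part of these shares in the gene results was not tested.

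Later R07 libraries, which did not enter the choice of genes, were set against withdrawal libraries other than 12 and 0 h, which had entered it only through the estimate of the spread. Against withdrawal 4 and 8 h, 341 of 1312 genes that rose at 12 h were higher at R07 36, 72 and 120 h (26%, against 17.5% of all genes) and 71 were lower. Of 926 genes that fell, 179 were lower (19.3%, against 11.4% of all) and 90 were higher. Against withdrawal at the same 3 times, 319 of 1310 risen genes were higher (24.4%, against 12.4% of all), while 75 of 924 fallen genes were lower (8.12%, against 8.77% of all), close to the background. Without the R07 72 h library, against withdrawal 4 and 8 h, 231 risen genes were higher (17.7%, against 9.26% of all) and 73 fallen genes were lower (7.91%, against 3.8% of all). Against the same times the counts without it were 55 (4.22%, against 1.04% of all) and 2 (0.217%, against 0.249% of all). Without the R07 36 h library the shares came close to those of all genes or fell below them. Against withdrawal 4 and 8 h they were then 28.7% of risen genes (26.8% of all) and 23.2% of fallen genes (23.6% of all), and against the same times 20.4% (19.7% of all) and 8.7% (17.7% of all). Several genes changed level between the R07 times, with 1 library at each. Atf4 had 88.8, 106, 432 and 655 CPM at R07 12, 36, 72 and 120 h, and Trib3 had 4.18, 2, 101 and 226 CPM, so that both were low at 12 and 36 h and above the 0 h level at 72 and 120 h. Snhg5 had 7.52, 9.96, 47.6 and 119 CPM at the same times. Hexim1 ran the other way, with 129, 101, 26.1 and 14.5 CPM. Flt3 stayed high, with 555, 446, 927 and 951 CPM, and its log2 difference from withdrawal 4 and 8 h was 1.66 (adjusted p = 0.00302).

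**Figure D4:**
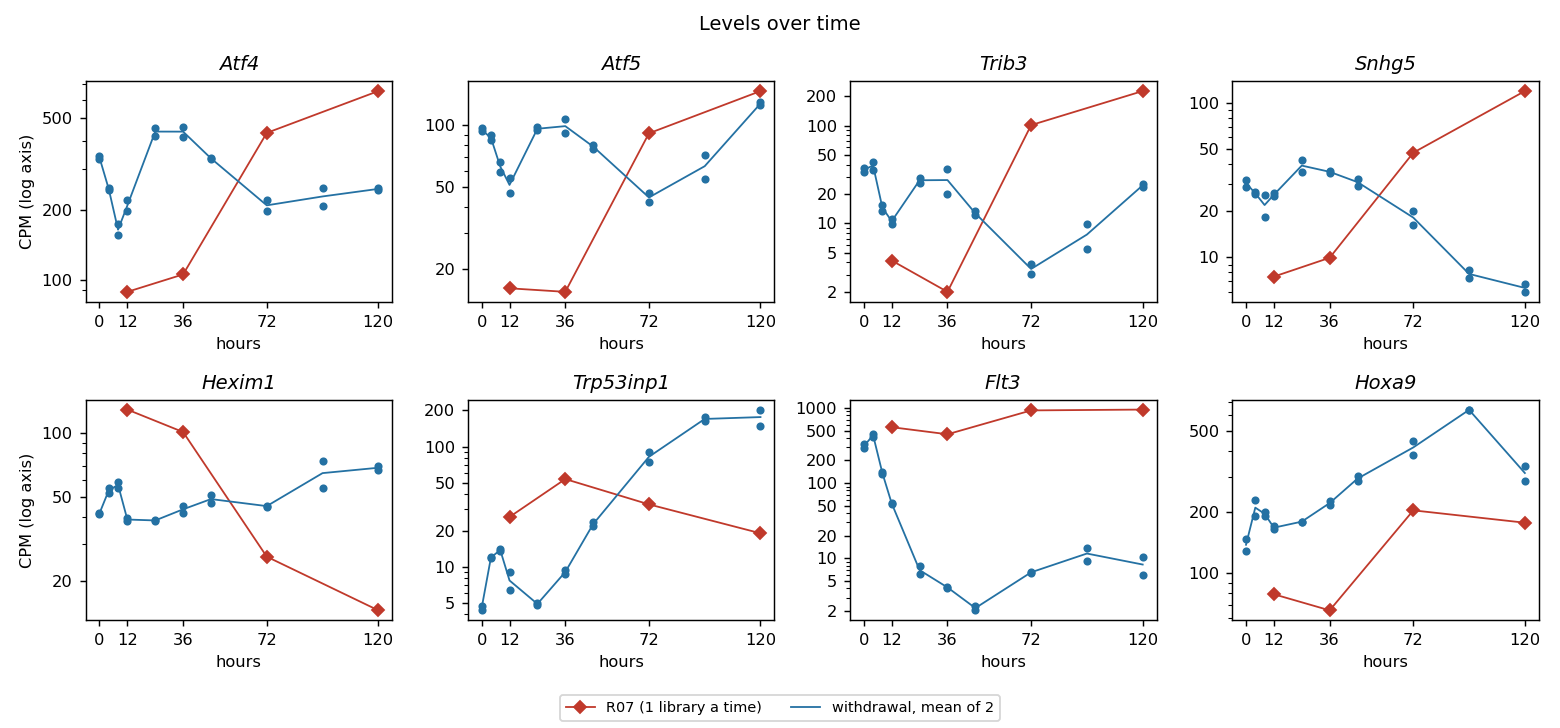
Level of 8 genes over hours of R07 (diamonds, 1 library a time) and of withdrawal (circles are libraries, the line their mean of 2), in CPM on a log axis. Atf4 and Trib3 are low in R07 at 12 and 36 h and high at 72 and 120 h, and Hexim1 has 129 CPM at 12 h and 14.5 CPM at 120 h of R07.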

How the data were processed

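RNA from mouse Lys-GFP-ER-HoxA9 cells was sequenced in 24 libraries with an oligo-dT selected, stranded kit, per the labels' protocols. The authors deposited unnormalized counts for each gene and library, all whole numbers; STAR 2.4.2a, Picard and mm10 are named per the submitters' processing notes, and the counting program, strand setting and annotation are not given in the sources used here. Of 45323 lines, 4 name no gene and 1 carries another identifier; all 5 stayed out of library sizes and tests, and 44671 Ensembl identifiers received a symbol from GENCODE M21. Depth was 36623072 to 49599069 gene counts a library, and genes with few counts have the least precision. Multimapping reads were 6.24 to 8.72% of reads.

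The 20 withdrawal libraries and R07 12 h were fitted together, each time a level of 1 factor, leaving 10 residual degrees of freedom (edgeR 4.0.16, limma 3.58.1, R 4.3.3; TMM scaling, filterByExpr over the 5 libraries compared with its minimum of 10 counts, quasi-likelihood tests, Benjamini-Hochberg over all genes tested). CPM values use TMM-scaled library sizes over all 24 libraries. Calls required an adjusted p under 0.05 against both times and a level in R07 above, or below, all 4 libraries. Later R07 libraries were tested in 2 separate fits, against withdrawal 4 and 8 h and, with time as a factor, against withdrawal at the same times. The scripts were tested on simulated data.

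Column letters of the duplicates do not match the labels' replicate numbers, so duplicates were used by time only. Genes named were the 14 widest gaps each way with a mean of at least 4 CPM and no clone or predicted name. Others came from 16 fixed anchors and from up to 4 called members a list by gap. Of the anchors Lyz2 was not tested, and some other anchors and some of these list members are not reported here. Further members given with values, among them those not called, were chosen after their values were seen. The comparison, members and gene lists were chosen with earlier results of these data known, and 4 lists were added after the R07 12 h values were seen. Alternatives tried were RLE scaling, no filter, DESeq2 1.42.0, smaller sets of libraries for the spread, a block on the column letter, and leaving out each library in turn. A few genes of the lists are counted with their list but not reported here.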

Additional observations from a re-analysis of the deposited data

How the results depend on the processing

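With R07 at 1 library, no alternative measures its own spread. Genes beyond all 4 libraries numbered 1147 to 1379 higher and 905 to 1141 lower under the 6 settings that kept every compared library or a smaller set for the spread, against 1333 and 929 as reported, and 1015 to 1121 higher and 626 to 819 lower without 1 withdrawal library. With a replicate block by column letter the counts were 1379 and 968, and the letters did not pair the libraries, since the correlation of library A deviations between pairs of times ran from -0.577 to 0.646; the block is given for completeness. Genes lower than at 0 h were 1516 as reported and 953 to 1542 in the fits without 1 withdrawal library, lowest without 0 h library A. Interferon-stimulated genes that rose were 13 with no filter on low counts, where 25 members were tested, and the xenobiotic count was 3 to 5 without 1 library. In the later R07 comparisons, leaving out 1 R07 library gave 231 to 405 and 73 to 240 genes against withdrawal 4 and 8 h, and 55 to 395 and 2 to 92 against the same times, while the share of all genes ran from 9.26 to 26.8%, 3.8 to 23.6%, 1.04 to 19.7% and 0.249 to 17.7%. Counts were lowest without the 72 h library, and the excess over all genes was smallest or absent without the 36 h library; the cause was not tested. Of 167 called genes followed, 106 kept both calls under every alternative and 61 lost 1 without at least 1 library. None of 3540 gene values under the alternatives reversed a called direction.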

Other observations

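One line of the deposited table carries an identifier that is not a mouse gene and was kept out of the tests. It had 36 counts in R07 12 h, against 279 and 284 counts at withdrawal 12 h and 29 and 38 counts at 0 h. Later R07 libraries had 559, 401 and 106 counts at 36, 72 and 120 h, and withdrawal libraries had 55105 and 38262 counts at 120 h. At 12 h the R07 library thus lay with 0 h and below both withdrawal libraries of its own time.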
